A study of Mus musculus with 3 samples.

Results

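Open chromatin at the genes of prostaglandin synthesis, signalling and breakdown was examined in the mouse uterus on gestation day 4. The set holds 10 genes: Pla2g4a, Ptgs1, Ptgs2, Ptges, Ptges2, Ptgis, Ptger2, Ptger4, Ptgfr and Hpgd. A peak was counted for a gene when it overlapped the annotated span of the gene extended by 10 kb on each side. This rule found 3 peaks among the 12413 of the list, 1 each at Ptges2, Ptger4 and Hpgd. No measured value entered the overlap rule, but the genes, and the lists used below, were chosen with earlier results of these data known. FAIRE-seq, short for formaldehyde-assisted isolation of regulatory elements, sequences the DNA that is not held to protein after crosslinking and phenol-chloroform extraction, which is enriched in nucleosome-depleted regions. The 3 samples form 1 group: untreated C57BL/6J wild-type females aged 6 to 10 weeks, mated with fertile males, whose whole uteri were taken on gestation day 4, when blastocysts were found in the uterine flush. No other genotype, treatment or day was included. The peak list names no sample, so no value has an error between mice, library depth is unknown, and peaks of different uterine cell types cannot be told apart.

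Prostaglandins are lipid signals made from arachidonic acid. Cytosolic phospholipase A2 releases the fatty acid from membranes, a cyclooxygenase turns it into prostaglandin H2, and terminal synthases convert that product into prostaglandin E2, prostacyclin and others. The products act on G protein-coupled receptors and are inactivated by oxidation inside cells. In the mouse uterus this pathway is known for its roles in implantation, decidualization and, later, labour.

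Among all 21519 protein-coding genes, 57.6% had a peak in the span or within 10 kb, against 3 of the 10 prostaglandin genes (30.0%). Within 1 kb of an annotated start site, 46.2% of protein-coding genes had a peak, against the same 3 of 10. For genes with no tabled start site, either annotated end counted in its place, here and in the lists below. All 3 peaks lay at the start of their gene, and none lay deeper in a gene or in its flanks. The genes with a peak were a synthase, a receptor and the enzyme of breakdown. Those without were the phospholipase, both cyclooxygenases, the inducible prostaglandin E2 synthase, the prostacyclin synthase and both other receptors of the set. Because the 10 genes are few and were picked as a pathway, no test was made of this difference. The list gives only what the authors' peak caller accepted, so a gene with no peak is not shown to be closed in every cell type.

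The start sites that carried a peak are shown here beside 2 that did not. The windows differ in how many CpG dinucleotides they hold, but Ptgs2, with no peak, holds more than Hpgd, with one. Each sequence runs 5′ to 3′ along the gene from 250 bases before the start site to 50 after it, in RefSeq's GRCm38.p6, and capitals mark each CpG.
Ptger4 (chr15:5244138-5244437, minus strand, peak): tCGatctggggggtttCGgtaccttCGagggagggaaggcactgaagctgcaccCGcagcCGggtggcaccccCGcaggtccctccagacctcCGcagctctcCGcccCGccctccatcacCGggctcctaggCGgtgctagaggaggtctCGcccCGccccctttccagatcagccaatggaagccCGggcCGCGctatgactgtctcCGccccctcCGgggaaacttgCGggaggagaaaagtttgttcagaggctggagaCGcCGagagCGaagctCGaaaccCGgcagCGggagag
Hpgd (chr8:56294302-56294601, plus strand, peak): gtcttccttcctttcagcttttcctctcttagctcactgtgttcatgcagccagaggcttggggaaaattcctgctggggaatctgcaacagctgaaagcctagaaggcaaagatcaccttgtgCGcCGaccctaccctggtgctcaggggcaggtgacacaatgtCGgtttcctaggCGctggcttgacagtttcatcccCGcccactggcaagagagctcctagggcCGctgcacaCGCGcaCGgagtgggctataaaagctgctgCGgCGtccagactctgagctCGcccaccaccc
Ptges2 (chr2:32395640-32395939, plus strand, peak just downstream): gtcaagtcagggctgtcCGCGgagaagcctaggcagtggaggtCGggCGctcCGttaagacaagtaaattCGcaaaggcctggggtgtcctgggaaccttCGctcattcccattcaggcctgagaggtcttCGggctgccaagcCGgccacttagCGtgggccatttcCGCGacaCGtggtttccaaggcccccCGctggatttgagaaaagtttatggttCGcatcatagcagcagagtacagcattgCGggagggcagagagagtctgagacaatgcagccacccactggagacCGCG
Ptgs2 (chr1:150099781-150100080, plus strand, no peak): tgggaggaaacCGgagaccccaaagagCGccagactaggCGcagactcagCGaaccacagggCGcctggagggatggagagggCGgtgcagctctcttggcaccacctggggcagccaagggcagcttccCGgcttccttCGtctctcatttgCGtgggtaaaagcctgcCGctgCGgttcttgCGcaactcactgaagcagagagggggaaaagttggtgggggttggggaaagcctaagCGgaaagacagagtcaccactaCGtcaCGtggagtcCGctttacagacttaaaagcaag
Ptger2 (chr14:44987861-44988160, plus strand, no peak): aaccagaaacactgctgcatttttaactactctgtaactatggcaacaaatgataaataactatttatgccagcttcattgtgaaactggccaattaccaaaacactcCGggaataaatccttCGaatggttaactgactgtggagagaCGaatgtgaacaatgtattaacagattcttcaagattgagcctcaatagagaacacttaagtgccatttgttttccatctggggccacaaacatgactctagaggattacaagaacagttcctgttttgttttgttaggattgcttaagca
The Ptger4 window held 25 CpGs, that of Ptges2 18, that of Ptgs2 16, that of Hpgd 12 and that of Ptger2 3. Capitals are scattered through the whole Ptger4 window, whereas in Hpgd they are clustered in its last part and in Ptger2 they are almost missing.

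Ptges2 encodes a membrane-associated prostaglandin E synthase whose role in making prostaglandin E2 in vivo is disputed. It had the strongest of the 3 peaks, on chromosome 2 from 32396145 to 32396646 in the authors' build, GRCm38.p5. The pileup, the coverage at the summit, was 69, and the fold enrichment over local background was 6.66. That fold was above 62.3% of all peaks, and the peak was 502 bp wide against a median of 427 bp. The summit lay 563 bp downstream of the start site, and the peak ran from 255 to 756 bp inside the gene. None of the 300 bases printed for Ptges2 was therefore in the peak. No other protein-coding start site lay within 1 kb of this peak, and Lcn2, which encodes lipocalin 2, was the only other protein-coding gene within 10 kb of it.

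Ptger4 encodes EP4, a prostaglandin E2 receptor that raises cyclic AMP. Its peak lay on chromosome 15 from 5243920 to 5244404, with a pileup of 42 and a fold enrichment of 3.99, above 16.1% of all peaks. The summit was 143 bp upstream of the start site, and the peak reached from 217 bp before that site to 267 bp after it. It covered 267 of the 300 bases printed for Ptger4 (89.0%). No other protein-coding gene lay within 10 kb of the peak.

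Hpgd encodes 15-hydroxyprostaglandin dehydrogenase, which starts the inactivation of prostaglandins. Its peak lay on chromosome 8 from 56294476 to 56294861, with a pileup of 35 and a fold enrichment of 4.50, above 26.8% of all peaks. The summit was 137 bp downstream of the start site, and the peak reached from 76 bp before it to 309 bp after it. It covered 126 of the 300 bases shown (42.0%), the stretch in which most of the Hpgd CpGs stand. This peak too had no other protein-coding gene within 10 kb.

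The 3 peaks thus differed in strength, and the peaks of Ptger4 and Hpgd were in the weaker part of the list. Their median fold enrichment was 4.50, against 5.80 over all peaks (interquartile range 4.37 to 7.79) and 6.07 over the 10034 peaks within 1 kb of a protein-coding start site. The −log10 q was 32.2 at Ptges2, 11.3 at Ptger4 and 11.1 at Hpgd, against a median of 22.7 over all peaks. Local background was computed from the pileup and the fold. It was 9.50 at Ptges2, 9.79 at Ptger4 and 7.002 at Hpgd, against a median of 8.59 over all peaks. The Hpgd value recurs at other weak peaks, such as those of Slco2a1 (pileup 30, 3.87-fold) and Akr1b3 (pileup 31, 3.999-fold). Whether it is a lowest value shared across the list, and not a local measure, was not tested. The lower folds of Ptger4 and Hpgd went with lower pileups, 42 and 35.

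**Figure D1:**
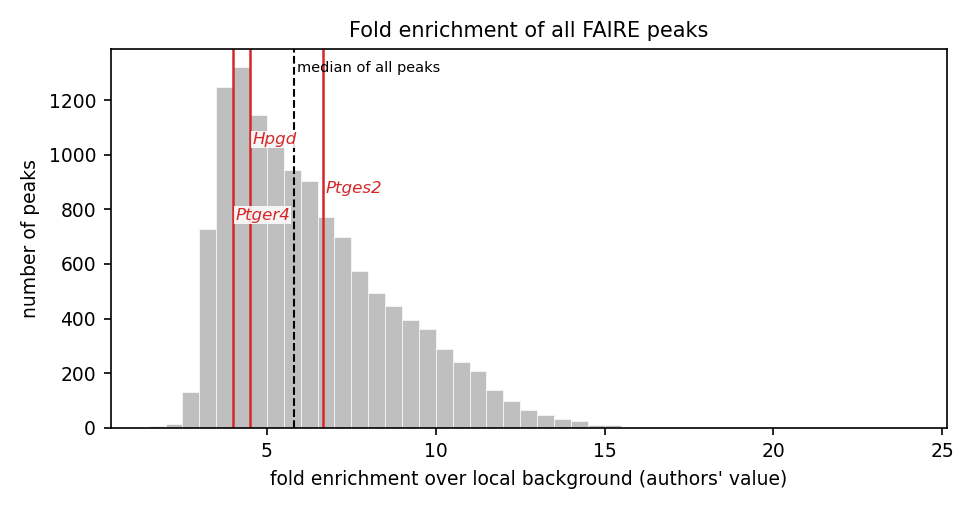
Histogram of the authors' fold enrichment (x axis, bins of 0.5) against the number of peaks (y axis) for all 12413 peaks. Red lines mark the single peaks of Ptger4 (3.99), Hpgd (4.50) and Ptges2 (6.66), and the dashed line marks the median of all peaks (5.80), with Ptges2 the only 1 of the 3 to its right.

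Within the set, the 3 genes of the first steps, Pla2g4a, Ptgs1 and Ptgs2, had no peak in the window. Of all protein-coding genes, 57.6% had one. Pla2g4a, the cytosolic phospholipase A2, and Ptgs2, the inducible cyclooxygenase, are neighbours on chromosome 1 and share the same empty stretch. The nearest peak to both was on chromosome 1 from 150392982 to 150393591 (9.48-fold), at the start of Odr4. It lay 284.7 kb from Ptgs2 and 431.7 kb from Pla2g4a. Of all protein-coding genes, 87.9% had a nearer peak than Ptgs2 did and 91.5% a nearer one than Pla2g4a. Because these genes are neighbours, they are 1 observation of an empty region and not 2. Ptgs1, the constitutive cyclooxygenase, was separated by 80.0 kb from its nearest peak, on chromosome 2 from 36136426 to 36136725 (5.06-fold), at the start of Mrrf. A nearer peak than that of Ptgs1 was found for 75.7% of protein-coding genes. Some other genes of arachidonate release, listed below, did have peaks.

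Ptges, the inducible microsomal prostaglandin E synthase, and Ptgis, prostacyclin synthase, differed from the genes above in having peaks just beyond the window. Around Ptges, 8 peaks lay within 100 kb of the start site, more than at 94.1% of protein-coding genes, but none was within 10 kb of the gene. The nearest was 11.5 kb away, on chromosome 2 from 30942471 to 30942736 (3.50-fold). The stronger peak on chromosome 2 from 30864898 to 30865276 (7.72-fold) was 24.2 kb away, and its nearest start site was that of Prrx2, a homeobox gene. Further peaks within 50 kb of Ptges lay at the starts of Prrx2 (5.07-fold), Tor1b (4.74-fold) and Tor1a (5.78-fold). Near Ptgis, 4 peaks lay between 12.8 and 29.9 kb from the gene. No start site is given for Ptgis in the sequence table used, so its strand and promoter are not described.

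Of the 3 receptor genes of the set, only Ptger4 had a peak. Ptger2 encodes EP2, the other cyclic AMP-coupled prostaglandin E2 receptor. Its nearest peak was 215.8 kb away, on chromosome 14 from 45219655 to 45220289 (5.17-fold), at the start of Gpr137c. Ptgfr encodes the prostaglandin F2α receptor FP, known for contraction of the uterine muscle and for luteolysis. Its nearest peak was 328.1 kb away, on chromosome 3 from 152165661 to 152166022 (3.87-fold). Ptger4 had 3 peaks within 100 kb of its start site, whereas Ptger2 and Ptgfr had none. Of all protein-coding genes, 59.2% had fewer than 3 peaks in this range and 24.8% had none. Besides its own, the peaks around Ptger4 lay nearest the starts of Ttc33 (3.999-fold) and Prkaa1 (5.50-fold).

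The wider surroundings of the genes also varied. Of the 10, 4 genes (Pla2g4a, Ptgs2, Ptger2 and Ptgfr) had their nearest peak over 200 kb away, as did 15.2% of all protein-coding genes. Pla2g4a and Ptgs2 share their empty region, so these are 3 separate regions. Within 500 kb of the start site there were 26 peaks around Ptges2, 23 around Ptges and, counted from the middle of the gene, 22 around Ptgis. By contrast there was 1 around Pla2g4a, 1 around Ptgs2, 2 around Hpgd, 3 each around Ptgs1 and Ptgfr, 4 around Ptger4 and 5 around Ptger2. The median over protein-coding genes was 8 peaks (interquartile range 4 to 14). The number of other protein-coding genes in the same 500 kb was 33 around Ptges2, 16 around Ptges, 15 each around Ptgis and Ptgs1 and 12 around Ptger2. It was 8 around Ptgfr, 7 around Ptger4, 6 around Ptgs2, 5 around Pla2g4a and 4 around Hpgd, with a median of 16 over protein-coding genes. Ptges2 thus had the most genes and the most peaks, and those with 8 or fewer other genes had 1 to 4 peaks. Ptges, Ptgis and Ptgs1 had nearly equal gene numbers with 23, 22 and 3 peaks. The part of gene density in the result was not tested.

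**Figure D2:**
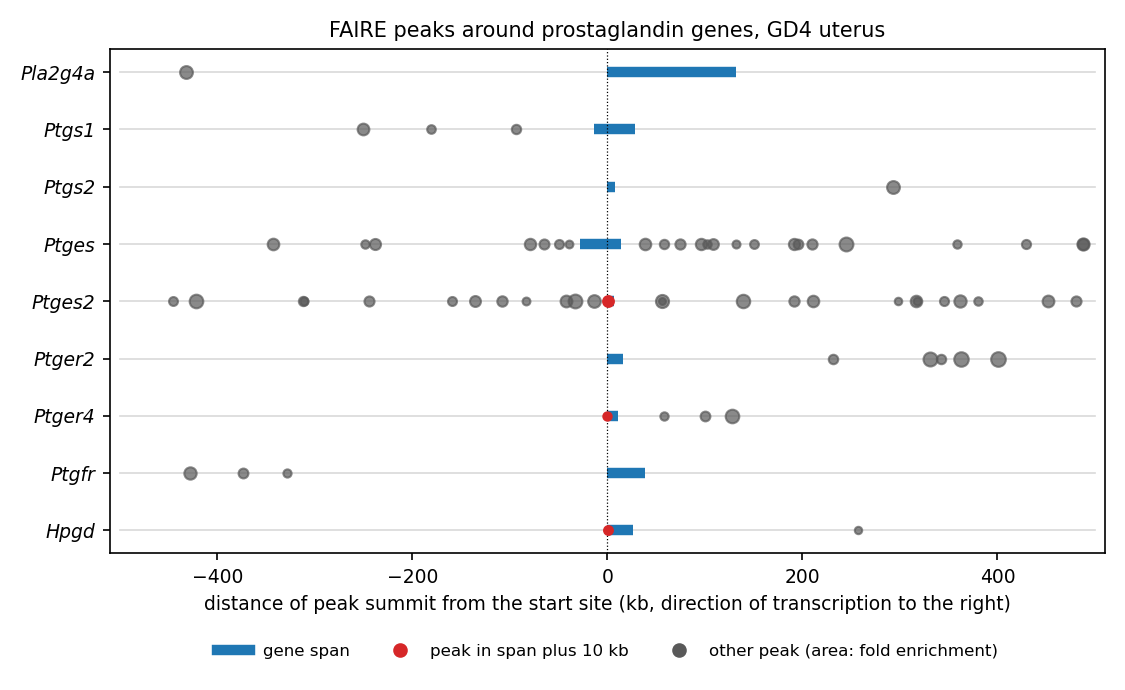
Peaks within 500 kb of the start site of the 9 prostaglandin genes whose start site is tabled, with distance from that site in kb on the x axis and 1 gene per row. Blue bars are gene spans (those of Ptgs1 and Ptges also reach upstream of the tabled start), red points the peaks in the span or within 10 kb (Ptges2, Ptger4, Hpgd), and grey points all other peaks, with point area in proportion to fold enrichment; the rows of Ptges and Ptges2 are crowded, with 23 and 26 peaks, while those of Pla2g4a and Ptgs2 hold 1.

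Widening the flank to 50 kb added 15 peaks and brought in Ptges and Ptgis, which made 5 of 10 genes, against 70.8% of protein-coding genes. None of the 15 had a prostaglandin gene of the set as its nearest start site or gene end. Of them, 11 lay within 1 kb of the start or end of another protein-coding gene, such as Ciz1 (11.0-fold), Slc25a25 (9.90-fold), 1110008P14Rik (9.25-fold) and Dnm1 (8.02-fold) around Ptges2. These added peaks are thus mostly those of neighbouring genes by position.

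Start sites with many CpGs more often had a peak across the genome, and the prostaglandin genes were read against that. Over 21044 start sites of protein-coding genes, the share with a peak within 1 kb was 2.11% where the 300 bases held 0 to 4 CpGs. It was 21.6% at 5 to 13 CpGs, 68.5% at 14 to 25 and 92.8% at 26 or more. The median was 25 CpGs at start sites with a peak and 5 at those without. The 10 tabled start sites of the prostaglandin genes (2 of them of Pla2g4a, none of Ptgis) held 2 to 25 CpGs, so none was in the richest class. In the class of 14 to 25 CpGs stood Ptger4, Ptges2 and Ptgs2, of which Ptger4 and Ptges2 had a peak. In the class of 5 to 13, Hpgd had a peak, and Ptgfr (11 CpGs), Ptges (10), Ptgs1 (6) and the upstream start of Pla2g4a (6) had none. Both start sites with 4 or fewer, those of Ptger2 and the second start of Pla2g4a, had none. Ptgs2 was thus the prostaglandin gene with the most CpGs at its start and no peak. Base composition moved with the peaks as well, with a median GC content of 64.7% at start sites with a peak and 50.3% at those without, and its part in these shares was not tested.

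**Figure D3:**
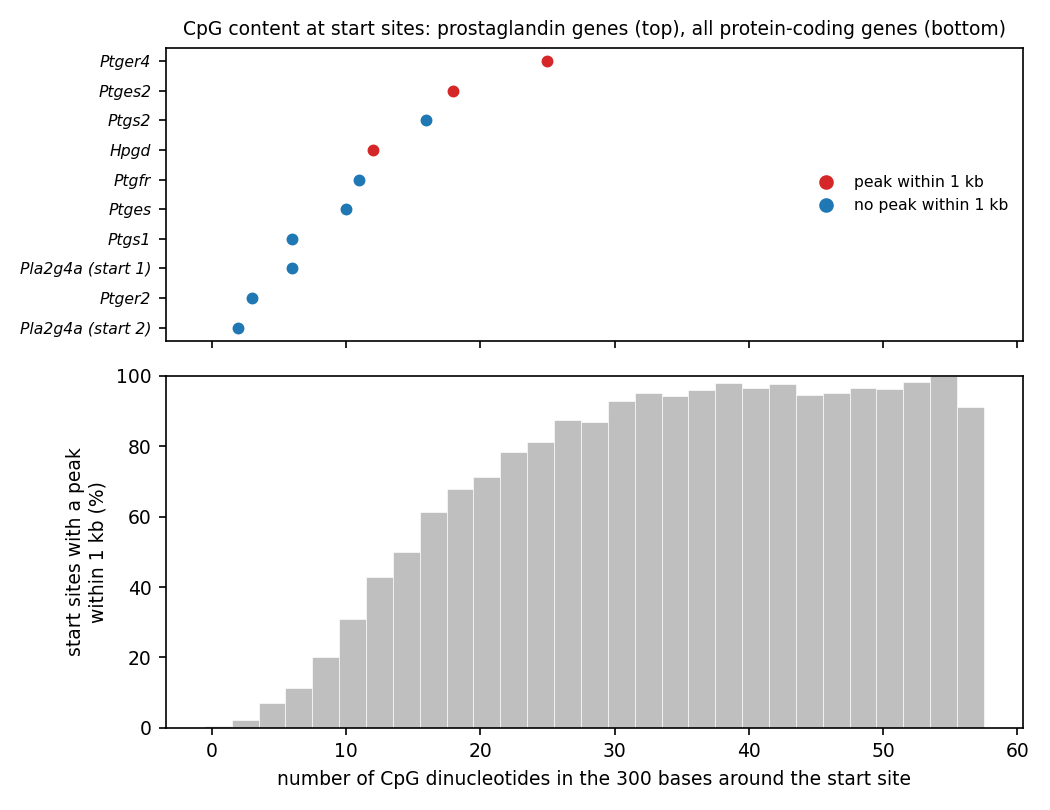
Top: number of CpG dinucleotides in the 300 bases around each tabled start site of the prostaglandin genes, red with and blue without a peak within 1 kb. Bottom: percentage of all protein-coding start sites with a peak within 1 kb, in bins of 2 CpGs (bins of 20 or more start sites drawn). In the wider classes of the text, which are not drawn, the share was 2.11% at 0 to 4 CpGs and 92.8% at 26 or more. The 9 prostaglandin genes that have a tabled start lie at 25 or below.

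Short sequence motifs were searched on both strands of the same 300 bases. The GC box GGGCGG, a site of Sp and Klf factors, was in 46.7% of protein-coding promoters and in those of Ptger4, Hpgd, Ptges, Ptgfr and Ptgs2. Ptger4 held 4 copies, the first pair of which overlap by 1 base, starting 148, 143, 95 and 42 bases before the start site. The C/EBP palindrome TTGCGCAA was in 0.22% of promoters and, among these genes, only in that of Ptgs2, starting 69 bases before its start site. The E-box CACGTG was in 7.91% of promoters and in those of Ptgs2 and Ptges2. In Ptgs2 it begins 16 bases after the tabled start and overlaps a match to TGACG, the core of the cyclic AMP response element, which was in 23.8% of promoters. TATAAA was in 12.7% of promoters, in that of Hpgd and in that of the second Pla2g4a start. In Hpgd it begins 4 bases after the tabled start. CCAAT was in 38.5% of promoters and in those of Ptger2, Ptger4 and the second Pla2g4a start. TGACGTCA (2.26% of promoters), the full cyclic AMP response element, which contains TGACG, and the AP-1 site TGANTCA (7.04%) were in none of the 10. A match of letters is a description and not a bound site.

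Other genes of the pathway were counted by role, from 6 lists of 56 genes. Of these, 34 (60.7%) had a peak in the span or within 10 kb and 24 (42.9%) within 1 kb of a start site, against 57.6% and 46.2% of protein-coding genes. The 24 include Dagla, Akr1b3, Ptger1 and Zadh2, which have no tabled start site and were counted at either annotated end. The shares of the 56 were thus close to those of all genes. The 50 peaks of these lists had a median fold enrichment of 5.48, from 2.98 to 13.3. A peak within 10 kb may belong to a neighbour, so the nearest start site is given where it was another gene's.

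Of 15 genes that release arachidonate or control that step, 6 had a peak, against 57.6% of protein-coding genes. The strongest were at Dagla (9.36-fold) and Daglb (6.99-fold), the diacylglycerol lipases, and at Mgll (7.40-fold) and Faah (6.96-fold), the hydrolases of endocannabinoids. The calcium-independent phospholipase Pla2g6 had a peak of 6.29-fold at its start, and that counted for Pla2g4b (5.55-fold) was at the start of Jmjd7. No peak was near the secreted phospholipases Pla2g2d, Pla2g2e, Pla2g2f, Pla2g5 and Pla2g10, the cytosolic Pla2g4c, Pla2g4e and Pla2g4f, or Anxa1, annexin A1.

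The synthases and reductases had a peak in 5 of 9 genes, but in 2 of 9 within 1 kb of a start site. Among protein-coding genes these shares were 57.6% and 46.2%. Ptges3, the Hsp90 co-chaperone p23 that also has prostaglandin E synthase activity, had the strongest at 9.998-fold, with its summit 28 bp from the start site. The 3 genes known as prostaglandin E synthases thus ranged from no peak at Ptges through 6.66-fold at Ptges2 to 9.998-fold at Ptges3. Akr1b3, an aldose reductase, had a peak of 3.999-fold at an end of the gene. Peaks counted for Tbxas1, thromboxane synthase (8.68-fold), Cbr1 (3.96-fold) and Ptgds (3.57-fold) lay nearest the starts of Hipk2, Setd4 and Paxx. No peak was near Hpgds, the haematopoietic prostaglandin D synthase, Prxl2b, Akr1b7 or Akr1c18, the uterine and ovarian 20α-hydroxysteroid dehydrogenase.

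The other receptors and a receptor partner had a peak in 7 of 9 genes and at a start site in 5 of 9. Protein-coding genes as a whole had 57.6% and 46.2%. Ptgfrn, an immunoglobulin superfamily protein that binds the prostaglandin F2α receptor and lowers its ligand binding, had the strongest at 9.60-fold, whereas Ptgfr itself had none within 328.1 kb. The nuclear receptors Pparg (6.69-fold) and Ppard (6.49-fold), which prostaglandin derivatives can activate, had peaks at their starts. Ptger3, encoding the EP3 receptor that lowers cyclic AMP, had 2 peaks at its start, of 6.69-fold and 4.02-fold. Ptger1, encoding the calcium-coupled EP1, had 3 peaks of 3.37-fold to 5.05-fold in the span or within 10 kb, the strongest of them 167 bp from an annotated end of the gene. Of the 4 prostaglandin E2 receptor genes, Ptger2 was thus the only 1 with no peak. Its start window held 3 CpGs, against 25 at Ptger4 and 27 at Ptger3, and no start site is tabled for Ptger1. Peaks counted for Tbxa2r (5.54-fold) and Ptgdr2 (3.70-fold) lay at the starts of Cactin and Ccdc86, and Ptgdr and Ptgir, the prostaglandin D2 and prostacyclin receptors, had none.

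Transport and breakdown had a peak in 4 of 5 genes, each at a start site or gene end. Over protein-coding genes, 57.6% had a peak and 46.2% had one at a start site. The 4 genes were Abcc4, an exporter of prostaglandins (7.98-fold), Slco2a1, the prostaglandin uptake transporter (3.87-fold), Ptgr2, a 15-oxoprostaglandin reductase (3.72-fold at its start), and Zadh2, whose strongest peak (6.02-fold) lay nearest Tshz1. Ptgr1 had none. With Hpgd (4.50-fold), peaks thus lay at the starts of an exporter, the uptake transporter and enzymes of the first inactivation steps, and those of Slco2a1 and Ptgr2 were, like that of Hpgd, below the median of all peaks.

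Upstream regulators and G proteins had a peak in 8 of 8 genes, and at a start site in 7 of 8. The shares over protein-coding genes were 57.6% and 46.2%. Creb1, the cyclic AMP response factor, had the strongest at 13.3-fold. Elavl1, which stabilizes Ptgs2 mRNA, reached 9.15-fold, Gna11 9.06-fold and Gnaq, like Gna11 a G protein of calcium-coupled receptors, 7.43-fold. Lpar3, a lysophosphatidic acid receptor that acts upstream of Ptgs2 in the implanting mouse uterus, had a peak of 5.67-fold with its summit 48 bp from the start site. The strongest peak counted for Zfp36, which destabilizes Ptgs2 mRNA, was 5.56-fold and lay nearest the start of Plekhg2. Cebpb had 6.27-fold and Gnas 4.77-fold. In 7 of the 8 genes the richest start window held 25 or more CpGs, the exception being Zfp36 with 21. Over all 21044 start sites of protein-coding genes the median was 13 CpGs and the upper quartile 25. Gnas was counted by the richest of its 4 start sites, which favours a high number. The part of CpG content in the count of 8 of 8 was not tested.

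**Figure D4:**
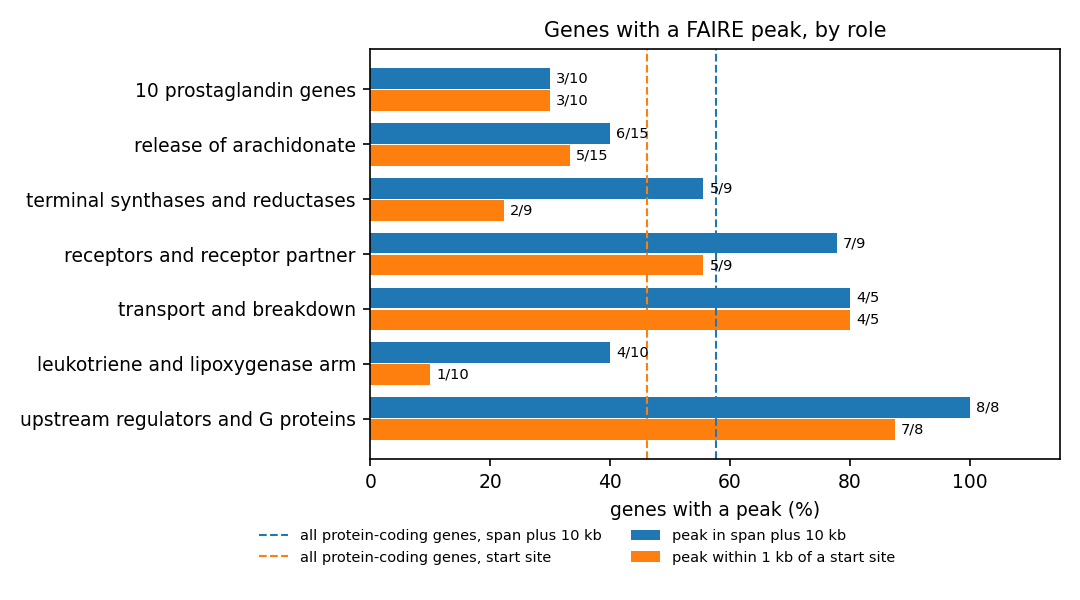
Percentage of genes (x axis) with a peak in the span or within 10 kb (blue) and within 1 kb of a start site (orange), for the 10 prostaglandin genes and for 6 lists of related genes, with counts beside the bars. Where no start site is tabled, either gene end was used. Dashed lines mark the shares over all protein-coding genes, 57.6% and 46.2%; the prostaglandin genes (3 of 10 on both) lie to the left of both lines.

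The lists showed a like order by CpG content. Each list gene was classed by its richest tabled start, and a peak at any of its tabled starts counted. Of 47 list genes with a tabled start site, 13 had 26 or more CpGs and all 13 had a peak. Of 7 with 14 to 25 CpGs, 6 had one, Zfp36 being the exception. Of 17 with 5 to 13 CpGs, 1 had a peak (Daglb), and of 10 with 4 or fewer, none had. For the prostaglandin genes, start sites were counted in the corresponding classes: 2 of 3 (14 to 25), 1 of 5 (5 to 13) and 0 of 2 (4 or fewer). Pla2g4a stands in both lower classes through its separate start sites, so these counts are not of genes. Each class also holds few start sites.

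Gene length did not order the prostaglandin genes as it did all genes. Over protein-coding genes the share with a peak in the span or within 10 kb rose from 41.5% under 10 kb to 61.1% at 10 to 30 kb, 70.1% at 30 to 100 kb and 73.3% above 100 kb. Among the prostaglandin genes, 1 of 2 under 10 kb had a peak (Ptges2), 2 of 3 at 10 to 30 kb (Ptger4 and Hpgd), and none of the 4 at 30 to 100 kb (Ptgs1, Ptges, Ptgis and Ptgfr) or Pla2g4a at 131.7 kb. No test was made of this order.

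The tissue label was checked against markers of uterine cell types. Of 25 markers, 14 had a peak in the span or within 10 kb, a share near the 57.6% of all protein-coding genes, so the count says nothing particular about the tissue. The counts were 3 of 5 each for epithelium (such as Epcam and Cdh1), stroma (such as Nr2f2), smooth muscle (such as Mylk) and immune cells (such as Spi1), and 2 of 5 for endothelium. Defining genes such as Krt8, Acta2, Myh11, Vim and Pecam1 had none, so the list does not show which cells the peaks at Ptges2, Ptger4 and Hpgd came from.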

How the data were processed

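FAIRE DNA from 3 whole uteri was sequenced by the authors; per the labels' protocols, 100 mg of tissue was crosslinked for 9 min in 1% formaldehyde and sheared to about 300 bp. The growth protocol gives 3 mice, the design text 4 for RNA. GRCm38.p5 and the tools FastQC, Bowtie2, HOMER and MACS2 stand in the submitters' processing notes; their versions, the call threshold, any control and any pooling are not stated there. Each peak in the deposited list has a pileup, taken as a coverage signal, a fold enrichment (ratio over local background) and a −log10 q-value, per the file headers. The header names no sample, and depth is unknown.

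Genes came from RefSeq GRCm38.p6 (chromosomes 1 to 19 and X). After 108 protein-coding genes with starts below 3 Mb, taken as scaffold coordinates, were left out, 21519 remained. Start sites came from a RefSeq promoter table (17273 of these genes, 80.3%; 9 of the 10 prostaglandin genes); for other genes both annotated ends were used, for the wider surroundings their midpoint. Python 3.11.15 and pandas 2.3.3 were used. Local background was (pileup + 1) / fold − 1. Overlap of 1 base counted, and the counting was checked on simulated data. Genes and peaks are not replicates, so no test was made.

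The genes and lists were chosen with earlier results of these data known. Named were all 10 genes, list genes with a peak (values for up to 4 a list with the highest fold, and others chosen after their values were seen), list genes without one, and genes beside a peak. Alternatives were other flanks, start-site windows, overlaps by summit, and the 6206 stronger peaks. A neighbouring gene is not reported here.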

Additional observations from a re-analysis of the deposited data

How the results depend on the processing

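The count of 3 prostaglandin genes with a peak, and of 3 peaks, was the same with no flank, with a 5 kb flank and with the summit required inside the window, against 48.8%, 54.2% and 57.5% of protein-coding genes. With a 50 kb flank it became 5 genes and 18 peaks (70.8% of protein-coding genes). With only the 6206 peaks of higher fold enrichment, or of higher −log10 q, it fell to 1 gene and 1 peak (Ptges2), against 36.2% and 35.8%. At start sites, the count was 3 with 5 kb windows (50.1%) and 2 with 250-base windows (42.8%), where Ptges2 dropped out, and 1 with either of these reduced lists (27.5% and 27.2%). The other pathway genes with a peak numbered 34, from 27 with no flank to 46 with 50 kb, and 21 with either of these reduced lists. The median fold of the 3 peaks stayed at 4.50 except with 50 kb, where it was 4.90. No replicate could be left out, because the list names no sample. Depth limits every absence: a site below the authors' call threshold is not in the list.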

Other observations

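The leukotriene and lipoxygenase arm, which uses the same arachidonic acid as the cyclooxygenases, had a peak in the span or within 10 kb in 4 of 10 genes, against 57.6% of protein-coding genes, and at a start site in 1 of 10, against 46.2%. The gene with a peak at its start was Lta4h, the leukotriene A4 hydrolase (5.12-fold, chromosome 10, 93453274 to 93453776), whose start window held 16 CpGs. Ltb4r1 and Ltb4r2, neighbouring leukotriene B4 receptor genes, shared the same 2 peaks, of 5.81-fold and 5.42-fold, so they are 1 observation. The strong peak counted for Alox12 (10.5-fold, chromosome 11, 70237508 to 70238069) lay nearest the start of 0610010K14Rik. Alox5, Alox5ap, Alox15, Ltc4s, Cysltr1 and Cysltr2 had no peak in the span or within 10 kb.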
